A study of Mus musculus with 35 samples.

Results

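Cytochromes P450 of families 1 to 4 were followed in the livers of BALB/c mice 6 h after an intravenous injection of silica particles. The members are genes whose symbol in the platform's annotation has the form of a family 1 to 4 P450 (Cyp, a family number, 1 letter and a number) on a probe set that names 1 gene. Per gene the probe set with the highest mean signal was used, and a gene was kept when 5 or more arrays had a signal over 165, the median of all values. This gave 46 members, out of 54 genes with such a symbol and 12669 genes tested in all. The first experiment gave SP70 particles at 10, 20 and 40 mg/kg, and the other compared 3 particles of different size, SP30, SP70 and SP300. The dose of SP30 was 10 mg/kg, that of SP300 was 10 or 200 mg/kg, and the control mice received deionized water. Each of the 7 groups held 5 mice, assigned at random, and 1 array was run per mouse on RNA of the left lateral liver. The mice carried no named mutation, and their sex and age are not given in the labels used here.

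P450s are haem enzymes of the endoplasmic reticulum that insert 1 oxygen atom into fatty acids, steroids, bile acids, drugs and pollutants, with electrons passed to them by P450 reductase and cytochrome b5. Families 1 to 3 do most of the drug and pollutant oxidation in hepatocytes, and family 4 hydroxylates fatty acids and eicosanoids. Their transcription in liver is set by the aryl hydrocarbon receptor, the xenobiotic receptors CAR and PXR, PPARA and hepatocyte factors, and it is known to fall in inflammation.

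The signals are probe set intensities on a linear scale. Array medians lay between 148.8 and 180.2. Probe sets differ in how brightly they read the same amount of RNA, so an order of brightness between members is no order of RNA levels, and a summed signal of markers is weighted to the brighter probe sets. A log2 difference is a difference of group means of log2(signal + 12.49), where 12.49 is the 10th percentile of all values. It stands with the standard error (± SE) of limma's moderated fit, and it was called when its Benjamini-Hochberg adjusted p over all genes tested was under 0.05. Of the 14 hepatocyte markers tested, such as Alb and Ttr, 2 were called higher and 1 lower after SP30 at 10 mg/kg, and their summed signal was 953149 to 1063545 there, against 976189 to 1031510 in control mice. After SP70 at 40 mg/kg 0 were called higher and 4 lower (835048 to 992294 summed), and after SP300 at 200 mg/kg 0 were called higher and 7 lower (852435 to 980268 summed). The shares of all genes called lower in these groups, in the same order, were 31.3%, 28.8% and 18%. Those called higher were 18.1%, 15.6% and 12.6%.

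P450 signals were lower at the doses that the study had chosen as toxic, and at 20 mg/kg of SP70, and far fewer of them differed from control at 10 mg/kg of SP70 or SP300. After SP30 at 10 mg/kg, 21 of the 46 members were called lower, where 31.3% of all genes were, and 2 were called higher, where 18.1% of all genes were (49.3% of all genes were called either way). After SP70 at 10 mg/kg, 2 were called lower (5.7% of all genes) and 1 higher (12.5%, either way 18.2%). At 20 mg/kg of SP70 the counts were 17 lower (20.9%) and 2 higher (18.8%, either way 39.8%), and at 40 mg/kg they were 23 lower (28.8%) and 1 higher (15.6%, either way 44.4%). SP300 at 200 mg/kg gave 17 lower (18% of all genes) and 1 higher (12.6%, either way 30.7%). At 10 mg/kg of SP300, limma called 0 members lower (0.245% of all genes) and 0 higher (0.924%, either way 1.17%), and at an unadjusted p under 0.05 there were 0 lower and 3 higher. The 6 comparisons share the 5 control mice, so their counts are not independent of each other.

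The called share of members stood above that of all genes for lower signals at the 4 doses with many calls, and below it for higher signals. The members' median log2 difference was -0.30 after SP30 at 10 mg/kg, where it was -0.12 over all genes. It was -0.06, -0.23 and -0.30 after SP70 at 10, 20 and 40 mg/kg, against 0.01, -0.03 and -0.09 over all genes. After SP300 it was 0.09 at 10 mg/kg and -0.23 at 200 mg/kg, against 0.06 and -0.06 over all genes. In a whole-tissue sample, fewer cells of a type and less RNA per cell cannot be told apart. On the same arrays 10 of 12 Kupffer cell markers were called lower after SP30 at 10 mg/kg, with a sum of 8542 to 18906, against 27491 to 39763 in control mice. For liver endothelial markers the count was 8 of 10 lower and 1 higher (8620 to 13915, against 23357 to 34102). All 8 neutrophil markers tested were called higher (49057 to 66919, against 1070 to 2677). In that comparison 31.3% of all genes were called lower and 18.1% higher. Kupffer cell markers were called lower in 9, 11 and 11 of 12 after SP70 at 10, 20 and 40 mg/kg, in 0 after SP300 at 10 mg/kg and in 11 after SP300 at 200 mg/kg, with median log2 differences of -1.38, -3.70, -4.52, 0.12 and -4.42, against -1.77 after SP30. Neutrophil markers were called higher in 7, 7 and 8 of 8 over the SP70 doses, and in 0 and 6 over those of SP300. Endothelial markers were called lower in 2, 5 and 8 of 10 over the SP70 doses, and in 0 and 6 over those of SP300. The shares of all genes called lower were 5.7%, 20.9% and 28.8% over the SP70 doses, and 0.245% and 18% over those of SP300. Those called higher were 12.5%, 18.8% and 15.6%, and 0.924% and 12.6%. At 10 mg/kg of SP70, 3 of the 46 P450s were called, beside 9 Kupffer cell, 7 neutrophil and 2 endothelial markers in the directions given. At 40 mg/kg, 24 P450s were called, beside 11, 8 and 8 of these markers. The part of these cell types in the P450 differences was not tested.

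**Figure D1:**
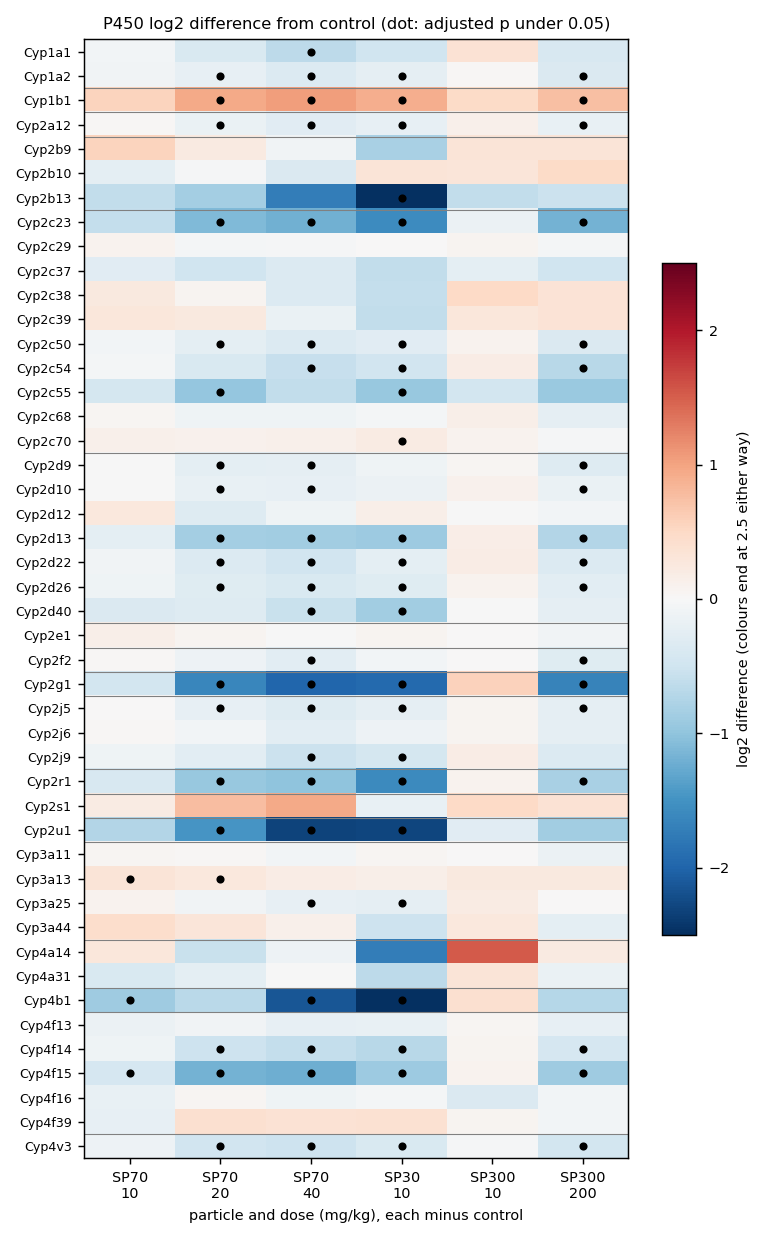
Log2 difference of each of the 46 members (rows, grouped by subfamily) between each treated group and control mice (columns, particle with the dose in mg/kg). Blue is lower and red is higher than control, colours end at a log2 difference of 2.5 either way, and a dot marks an adjusted p under 0.05. Most dots lie on blue cells of 4 columns (SP70 20 and 40, SP30 10, SP300 200), and the SP300 column at 10 mg/kg holds 0 dots.

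Of the 46 members, 32 lay above the filter value of 165 on all 35 arrays. Among these, 16 were called lower and 1 higher after SP30 at 10 mg/kg, where 31.3% and 18.1% of all genes were. Those shares are over all 12669 genes tested, and the shares among genes above 165 on every array were not computed. The other 14 passed the filter on only some arrays, and a gene can do so through the group in which it is high. The member nearest to the limit was Cyp2s1, above 165 on 7 arrays. Just outside it was Cyp2j13, above 165 on 2 arrays. The 8 genes of the pattern left out were Cyp2b19, Cyp2c65, Cyp2d34, Cyp2j11, Cyp2j13, Cyp3a16, Cyp4f18 and Cyp4x1.

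In family 1, Cyp1a2 fell and Cyp1b1 rose. Cyp1a2, which oxidises aromatic amines and caffeine, had signals of 42600.5, 40728, 33662, 43979 and 40382 in mice given SP70 at 40 mg/kg, against 49207, 47086, 57296, 51777 and 49191 in control mice. The groups did not overlap, and the log2 difference was -0.34 ± 0.07 (adjusted p = 0.000217). It was -0.23 ± 0.07 after SP30 at 10 mg/kg, -0.21 ± 0.07 after SP70 at 20 mg/kg and -0.37 ± 0.07 after SP300 at 200 mg/kg, all called. The call at 20 mg/kg was lost without control mouse 3 (-0.17, adjusted p = 0.0748), and that of SP30 was lost when arrays were centred on their medians (-0.21, adjusted p = 0.0612). Cyp1a1, the classic target of the aryl hydrocarbon receptor, was dim, with 62.6, 88.2, 156, 154 and 112 after SP70 at 40 mg/kg, against 218, 252, 112, 156 and 187 in control mice. The groups overlapped, and this was its 1 called difference from control (-0.65 ± 0.24, adjusted p = 0.025). The call was lost without control mouse 1 or 2 or SP70 mouse 1 or 2, where the difference was -0.48 to -0.59. After SP30 at 10 mg/kg Cyp1a1 was called lower without control mouse 3 (-0.64).

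Cyp1b1, which acts on polycyclic hydrocarbons and oestradiol mainly outside the liver, had the highest positive difference of any called member. Its signals were 188, 179.8, 190.0, 244 and 209.7 after SP70 at 40 mg/kg and 173, 270.2, 202, 104 and 203 after SP30 at 10 mg/kg, against 46.2, 95.3, 92.5, 152 and 99.4 in control mice. All 5 control signals lay below the filter value of 165, so the gene entered the tests through treated mice and the size of its difference depends on the pseudocount. The difference also rests on 1 probe set. The other Cyp1b1 probe sets, with mean signals of 54.4 and 49.7 over all arrays, exceeded 165 on 1 and 0 arrays and were not tested. After SP70 at 40 mg/kg, where the groups did not overlap, the difference was 1.04 ± 0.27 (adjusted p = 0.00193), and it was 1.14 with a pseudocount of 1 and 0.81 with one of 50. It was 0.91 ± 0.27 after SP30 at 10 mg/kg, 0.94 ± 0.27 after SP70 at 20 mg/kg and 0.75 ± 0.27 after SP300 at 200 mg/kg. These 3 were called, with groups that overlapped. The call of SP300 at 200 mg/kg was lost without control mouse 1 (0.55), without treated mouse 1, 4 or 5 (0.68, 0.67 and 0.72), and in a fit of only the groups compared (adjusted p = 0.098).

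The 250 bases before the RefSeq start of Cyp1b1 are shown because it had the highest positive difference of any called member. They lie at chr17:79715062-79715311 on the minus strand of GRCm38.p6. Capitals mark the letters GCGTG, the core that the aryl hydrocarbon receptor binds with ARNT, found here once, on the other strand, with its leftmost printed letter 76 bases before the start.
Cyp1b1: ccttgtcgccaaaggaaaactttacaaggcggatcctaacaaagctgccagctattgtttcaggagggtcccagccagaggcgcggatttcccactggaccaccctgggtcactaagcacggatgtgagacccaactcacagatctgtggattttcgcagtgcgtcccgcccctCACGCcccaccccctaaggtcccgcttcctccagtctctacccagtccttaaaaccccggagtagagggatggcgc
Of 32851 mouse promoter windows of this length, 28.2% hold GCGTG on either strand, as do 9 of the 37 members with a window in the table. A match describes these letters and is no evidence of binding.

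In subfamily Cyp2a, Cyp2a12, which hydroxylates steroids and bile acids, fell slightly. Its signals were 45563, 40909, 38867, 44064 and 36722 after SP70 at 40 mg/kg, against 47649, 48894, 50483, 50194 and 52083 in control mice, with no overlap. The difference was -0.28 ± 0.06 (adjusted p = 0.000571). It was also called after SP30 at 10 mg/kg (-0.20 ± 0.06), after SP70 at 20 mg/kg (-0.17 ± 0.06) and after SP300 at 200 mg/kg (-0.19 ± 0.06). At 20 mg/kg the call was lost without control mouse 3, 4 or 5 or SP70 mouse 2, 4 or 5 (-0.15 to -0.17), with no filter (adjusted p = 0.0706) and with no variance trend (adjusted p = 0.0542). The SP30 call was lost without SP30 mouse 1 (-0.14), and the SP300 call without control mouse 5 or SP300 mouse 2 (-0.18 and -0.17). With arrays centred on their medians, neither SP30 (-0.18) nor SP300 at 200 mg/kg (-0.14) was called. A probe set that names both Cyp2a5 and Cyp2a4 was not called in any comparison with control.

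Subfamily Cyp2b varied more between mice of 1 group than between groups. Cyp2b10, the CAR target that phenobarbital induces, had 14327, 7563, 19397, 7988 and 11842 after SP30 at 10 mg/kg, against 24484, 18738, 4359, 3537 and 9422 in control mice, and it was not called in any comparison with control (0.31 ± 0.41 after SP30). Cyp2b9 and Cyp2b13 are known for higher expression in female than in male mouse liver. Cyp2b13 had 85.4, 18.6, 47.7, 49.1 and 90.8 after SP30 at 10 mg/kg, against 9786, 255, 289.9, 34.3 and 186 in control mice. The signal of control mouse 1 was 33.8 times that of the next control mouse, and the ranges overlapped. The called difference of -2.53 ± 0.84 (adjusted p = 0.0127) became -1.35 without that mouse and was no longer called (adjusted p = 0.1). In a fit of only the groups compared it was not called either (adjusted p = 0.0583). Cyp2b9 had 1145, 362, 1499, 251 and 1496 after SP30 at 10 mg/kg, against 16104, 2393, 1705, 176 and 323 in control mice, and its difference was -0.80 ± 0.80, not called. Control mouse 1 was again the highest, at 6.73 times the next.

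Cyp2b9 and Cyp2b13 are near copies, and the 250 bases before their RefSeq starts are shown since both stood out in the same control mouse. The window of Cyp2b9 lies at chr7:26173159-26173408 and that of Cyp2b13 at chr7:26061245-26061494, both on the plus strand of GRCm38.p6, and capitals mark the bases at which they differ.
Cyp2b9: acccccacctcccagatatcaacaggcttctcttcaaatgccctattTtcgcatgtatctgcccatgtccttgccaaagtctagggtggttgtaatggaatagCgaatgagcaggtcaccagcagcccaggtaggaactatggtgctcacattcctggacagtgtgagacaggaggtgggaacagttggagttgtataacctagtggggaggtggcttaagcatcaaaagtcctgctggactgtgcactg
Cyp2b13: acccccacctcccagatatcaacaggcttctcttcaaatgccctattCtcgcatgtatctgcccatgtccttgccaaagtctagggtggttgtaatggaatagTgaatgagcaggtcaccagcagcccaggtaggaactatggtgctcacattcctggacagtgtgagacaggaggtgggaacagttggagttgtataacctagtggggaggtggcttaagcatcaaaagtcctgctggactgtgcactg
They share 248 of 250 bases (99.2%) and differ by T48C and C104T, each given as the base of Cyp2b9, the position counted from 1 at the 5′ end of the window, and the base of Cyp2b13. In an alignment with gaps the window of Cyp2b10 was 70.0% identical to each of them. A probe set can pick up transcripts of a near copy, so the signals of Cyp2b9 and Cyp2b13 are uncertain as measures of 1 gene.

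Control mouse 1 was the highest control mouse for 18 of the 46 members, where the other 4 control mice were the highest for 3 to 9. It had 15336 for Cyp4a14 (598.0 to 4041 in the other 4), 13453 for Cyp2c38 (3135 to 6660) and 20807 for Cyp2c39 (4946 to 9227). For Cyp2b13, Cyp2b9, Cyp2b10, Cyp4a14, Cyp2c38 and Cyp2c39 its signal also exceeded that of all 30 treated mice. Without control mouse 1 the members called after SP30 at 10 mg/kg numbered 17, against 23 with it. The 6 lost were Cyp2b13, Cyp2c50, Cyp2c54, Cyp2c55, Cyp2c70 and Cyp2j9. For SP300 at 200 mg/kg the count without it was 20, against 18, with Cyp1b1 lost and Cyp2c39, Cyp2u1 and Cyp3a13 gained. For SP70 at 10, 20 and 40 mg/kg it was 3, 17 and 23, against 3, 19 and 24.

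**Figure D2:**
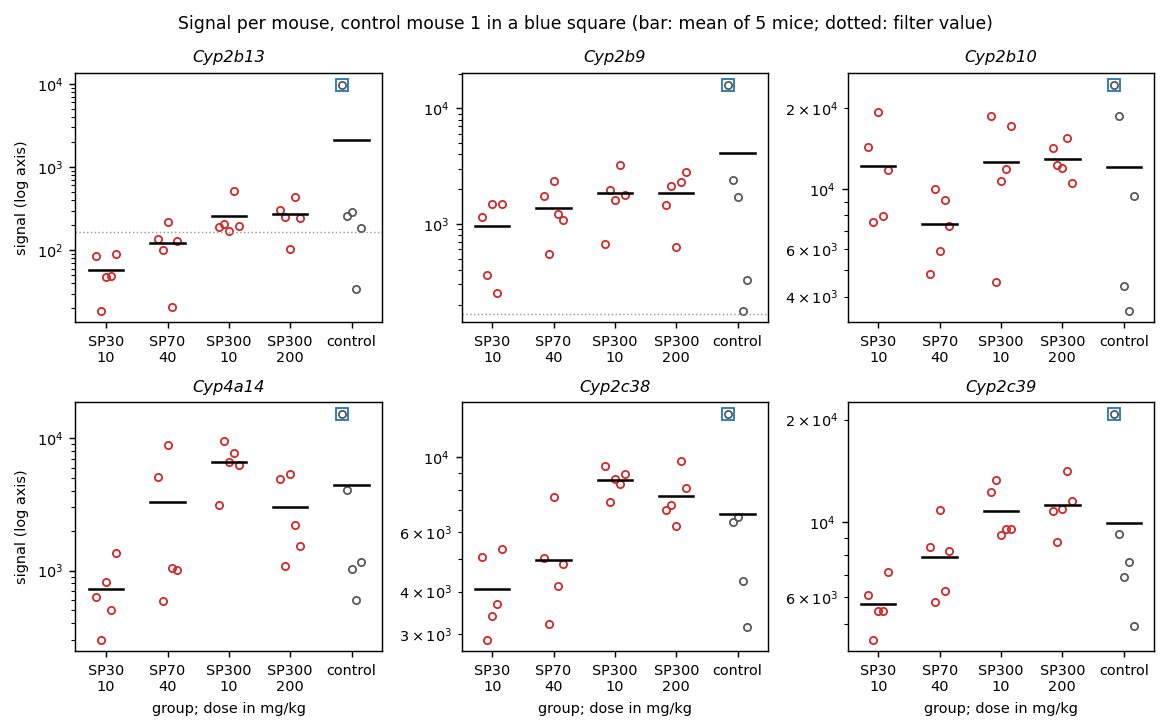
Signal per mouse (log axis) of 6 members in 4 treated groups and control mice, with the dose in mg/kg under the particle. Circles are mice, bars are means of 5 mice, the dotted line is the filter value of 165 where it falls in range, and a blue square marks control mouse 1, which lies above all mice shown in each of the 6 panels.

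In subfamily Cyp2c, 10 members were tested, and 4 were called lower and 1 higher after SP30 at 10 mg/kg, where 31.3% and 18.1% of all genes were. The member that fell most was Cyp2c23, an arachidonic acid epoxygenase. Its signals were 941, 1139, 1647, 795 and 931 after SP30 at 10 mg/kg and 1619, 878, 2043, 1741 and 1024 after SP300 at 200 mg/kg, against 2685, 2849, 3971, 3619.6 and 2842 in control mice. Both treated groups lay wholly below the control mice, with differences of -1.57 ± 0.23 (adjusted p = 5.87e-07) and -1.18 ± 0.23 (adjusted p = 0.000136). After SP70 it was -0.59 ± 0.23 at 10 mg/kg, not called, -1.11 ± 0.23 at 20 mg/kg and -1.20 ± 0.23 at 40 mg/kg, both called. At 10 mg/kg it was called without SP70 mouse 3 (-0.68), with quantile normalization (-0.66) and in a fit of only the groups compared (adjusted p = 0.0165).

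Other Cyp2c members moved less. Cyp2c50 was called lower in the same 4 groups (-0.29 after SP30, -0.25 and -0.34 after SP70 at 20 and 40 mg/kg, -0.37 after SP300 at 200 mg/kg). Its calls after SP30 and SP70 at 20 mg/kg were lost without single mice, control mouse 1 among them (-0.22 and -0.18 without it). Cyp2c54 was called in 3 of these groups and was lowest after SP300 at 200 mg/kg (-0.69 ± 0.17), and its SP30 call was lost without control mouse 1 (-0.35) or SP30 mouse 2 (-0.34). Cyp2c55, which hydroxylates arachidonic acid, was called after SP30 (-0.94 ± 0.37) and SP70 at 20 mg/kg (-0.97 ± 0.37). Both calls were lost without control mouse 1, 2 or 4 and without 4 and 2 of the treated mice, with -0.70 to -0.96. Cyp2c70, which makes the muricholic acids of the mouse, had 71492, 77756, 79112, 85441 and 84232 after SP30 at 10 mg/kg, against 65865, 69070.5, 74285, 62719.6 and 75572 in control mice. The ranges overlapped, and the difference of 0.20 ± 0.08 (adjusted p = 0.0334) was lost without control mouse 1, 2 or 4 or SP30 mouse 4 or 5, where it was 0.16 to 0.20, with no filter (adjusted p = 0.0666) and with no variance trend (adjusted p = 0.0516). Cyp2c29, another epoxygenase, had 77248, 77899, 81218, 79002 and 82111 after SP30 at 10 mg/kg, against 80957, 78836, 76804, 78115 and 79102 in control mice. It was not called in any comparison with control, and neither were Cyp2c37, Cyp2c38, Cyp2c39 and Cyp2c68.

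Subfamily Cyp2d is the mouse counterpart of the human CYP2D drug oxidases. Of its 7 members, 4 were called lower after SP30 at 10 mg/kg, 6 after SP70 at 40 mg/kg, 5 after SP70 at 20 mg/kg and 5 after SP300 at 200 mg/kg, and 0 were called higher in these groups. Of all genes 31.3%, 28.8%, 20.9% and 18% were called lower there. Cyp2d13 fell most, with log2 differences of -0.91 after SP30 and -0.88 after SP70 at 40 mg/kg. For Cyp2d40 they were -0.87 and -0.56, and the second call was lost without control mouse 3 or 5 or SP70 mouse 1, 2 or 4 (-0.39 to -0.52). Cyp2d10 had 51185, 48550.2, 52077, 47774 and 52959 after SP70 at 20 mg/kg, against 57128, 53587, 59603, 55821 and 60366 in control mice. Those groups did not overlap, and the difference was -0.18 ± 0.06 (adjusted p = 0.0169). It was just lost without SP70 mouse 4 (-0.16, adjusted p = 0.0504). After SP300 at 200 mg/kg it was -0.17 ± 0.06, and this call was lost without control mouse 3 or 5 or SP300 mouse 2, 3 or 5 (-0.15 to -0.17), with centred arrays (-0.12, adjusted p = 0.339) and with no filter (adjusted p = 0.068). Cyp2d9, a testosterone hydroxylase, Cyp2d22 and Cyp2d26 were called lower after SP70 at 40 mg/kg (-0.23, -0.47 and -0.37). That of Cyp2d9 was lost without control mouse 3 (-0.19) or SP70 mouse 3 (-0.16), and the SP30 call of Cyp2d22 (-0.25) without SP30 mouse 2 (-0.20). Cyp2d12 was not called in any comparison with control (0.14 ± 0.23 after SP30).

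Cyp2e1 and Cyp2f2 had very bright probe sets and small differences from control. Cyp2e1, which oxidises ethanol and acetaminophen, had 73097, 75571, 76543, 79701 and 82247 after SP30 at 10 mg/kg and 78924, 77768, 64325, 77408 and 73334 after SP70 at 40 mg/kg, against 71351, 69948, 76907, 77504 and 75898 in control mice. The groups overlapped, and the differences were 0.06 ± 0.07 and -0.00 ± 0.07, neither called. After SP70 at 10 mg/kg Cyp2e1 was called higher without SP70 mouse 2 (0.23) and not with it (0.15 ± 0.07). Cyp2f2, which oxidises naphthalene, had 50297, 51036, 46209, 53276 and 46406 after SP70 at 40 mg/kg, against 53465, 55879, 61817, 62915 and 60998 in control mice. It was called lower there (-0.25 ± 0.07, no overlap) and after SP300 at 200 mg/kg (-0.29 ± 0.07), and was not called after SP70 at 20 mg/kg, where it was called with quantile normalization (-0.16) and centred arrays (-0.22), nor after SP30 (-0.07 ± 0.07).

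The window of Cyp2e1 is shown as that of a member that was not called in any comparison with control. It lies at chr7:140763569-140763818 on the plus strand of GRCm38.p6. Capitals mark TATAAA, the TATA box, which starts 31 bases before the gene's start.
Cyp2e1: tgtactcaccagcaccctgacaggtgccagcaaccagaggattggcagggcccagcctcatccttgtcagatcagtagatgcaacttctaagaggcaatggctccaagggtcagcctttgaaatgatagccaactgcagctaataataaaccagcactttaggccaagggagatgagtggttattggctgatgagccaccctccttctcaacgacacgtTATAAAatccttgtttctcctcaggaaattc
Of the 37 member windows, 15 hold TATAAA on either strand, as do 12.4% of the 32851 mouse windows. CAAAGTCCA, a core of HNF4 sites, is in 3 (Cyp3a11, Cyp2c68 and Cyp2c70), as it is in 0.384% of all windows. TGTTTAC, a FOXA pattern, is in 5 members and 3.17% of all windows, and AGGTCA, the nuclear receptor half-site, is in 10 members and 14.0% of all windows. None of these 5 patterns contains another, and both strands were searched.

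Cyp2g1, best known from olfactory mucosa, and Cyp2u1, a fatty acid hydroxylase, had log2 differences among the lowest, with many treated signals below the filter value. Cyp2g1 had 73.7, 95.7, 122, 123 and 72 after SP30 at 10 mg/kg and 196, 64.9, 192, 54.5 and 156 after SP300 at 200 mg/kg, against 562, 353, 515, 707 and 136 in control mice. The SP30 mice all lay below the control mice, and the SP300 mice overlapped with the lowest one. The differences were -1.93 ± 0.46 (adjusted p = 0.000687) and -1.66 ± 0.46 (adjusted p = 0.00559). Cyp2u1 had 81.1, 223, 38.1, 181 and 140.5 after SP30 at 10 mg/kg, against 305, 629, 719, 738 and 855 in control mice, with no overlap and a difference of -2.30 ± 0.40 (adjusted p = 8.83e-06). A dimmer probe set of Cyp2u1 gave -1.23 after SP30 (adjusted p = 0.00491). All 5 SP30 signals of Cyp2g1 lay below the filter value, as did 3 of 5 after SP300 at 200 mg/kg. In control mice 1 of 5 did, and after SP70 or SP300 at 10 mg/kg 0 did. Cyp2g1 thus passed the filter mainly through groups in which it was high, and the size of its fall is uncertain. Of the Cyp2u1 signals, 3 of 5 after SP30 and 0 in control mice lay below that value.

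Cyp2r1, a vitamin D hydroxylase of the liver, had 264, 365, 401, 333 and 428 after SP30 at 10 mg/kg, against 937, 1431, 1146, 1341 and 728 in control mice. The groups did not overlap, and the difference was -1.58 ± 0.22 (adjusted p = 1.60e-07). It was also called after SP70 at 20 mg/kg (-0.94 ± 0.22) and 40 mg/kg (-1.01 ± 0.22) and after SP300 at 200 mg/kg (-0.82 ± 0.22). Cyp2s1, known from epithelia, was near the filter value in all groups, with 131, 187, 204, 119 and 248 after SP70 at 40 mg/kg, against 95.9, 262, 23.2, 114 and 45.1 in control mice, and was not called in any comparison with control. Without control mouse 2 it was called higher after SP70 at 20 mg/kg (1.15) and 40 mg/kg (1.34).

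Of 3 Cyp2j members, Cyp2j5, an arachidonic acid epoxygenase of kidney and liver, had 30246, 30770.0, 34268, 31486 and 32281 after SP30 at 10 mg/kg, against 37058, 37321, 36387, 35591 and 38850.4 in control mice. The groups did not overlap, and the difference was -0.22 ± 0.06 (adjusted p = 0.00446). A dimmer probe set of Cyp2j5 gave -0.74 ± 0.11 in the same comparison (adjusted p = 2.02e-06). Cyp2j6 was not called on its brightest probe set (-0.12 ± 0.14), and a dimmer one gave -0.36 ± 0.12 (adjusted p = 0.0124). Cyp2j9 was called lower after SP30 (-0.44 ± 0.17) and SP70 at 40 mg/kg (-0.55 ± 0.17), and the SP30 call was lost without control mouse 1 (-0.33) or SP30 mouse 1 or 3 (-0.33 and -0.38).

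Subfamily Cyp3a, whose chief adult member Cyp3a11 is the PXR target that matches human CYP3A4 in role, differed little from control. Cyp3a11 had 82131, 85545, 84775, 86546 and 88527 after SP30 at 10 mg/kg and 80841, 72583, 75809, 76212 and 71443 after SP300 at 200 mg/kg, against 78993, 79585, 85113, 85994 and 85188 in control mice. Neither difference was called (0.04 ± 0.06 and -0.14 ± 0.06), although in a fit of only the groups compared SP300 at 200 mg/kg was (adjusted p = 0.0453). Cyp3a25 was called lower after SP30 (-0.22 ± 0.06) and SP70 at 40 mg/kg (-0.20 ± 0.06). Cyp3a13, which the intestine also makes, was higher after SP70 at 10 mg/kg, with 9108, 8412, 6031, 8140.0 and 8388, against 7335, 6964, 5848, 5249 and 6402 in control mice. The ranges overlapped, the difference was 0.33 ± 0.10 (adjusted p = 0.0161), and it was lost without control mouse 4 (0.26), without SP70 mouse 1 (0.28) and in a fit of only these groups (adjusted p = 0.0833). At 20 mg/kg, with 7661, 7607, 8426, 6988 and 7240.0, it was 0.26 ± 0.10. That call was lost without control mouse 3 or 4 or SP70 mouse 1, 2 or 3, where it was 0.19 to 0.26, and with centred arrays (0.17). After SP70 at 40 mg/kg Cyp3a13 was called with quantile normalization (0.32), and after SP300 at 200 mg/kg with quantile normalization (0.28) and centred arrays (0.30). Cyp3a44 was not called in any comparison with control.

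Family 4 held both the largest fall in the set and members that were not called in any comparison with control. Cyp4b1, which acts on fatty acids and activates several plant and fungal toxins, had 179, 288, 255, 267 and 467 after SP30 at 10 mg/kg and 408, 539.7, 110.4, 593 and 500.1 after SP70 at 40 mg/kg, against 1495, 1380.0, 1284, 2109 and 2562 in control mice. Both treated groups lay wholly below the control mice. The differences were -2.56 ± 0.28 (adjusted p = 2.89e-09) and -2.14 ± 0.28 (adjusted p = 1.37e-07). After SP300 at 200 mg/kg the signals were 599, 1228, 1177, 1175 and 1147, also below all control mice, and the difference of -0.72 ± 0.28 was not called (adjusted p = 0.0535). It was called with a pseudocount of 50 (adjusted p = 0.0371), in a fit of only the groups compared (0.0269), with the replicate number as a block (0.0429) and without control mouse 2 or 3 (0.0492 and 0.0414).

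The 250 bases before the RefSeq start of Cyp4b1 are shown as the window of the member that fell most. They lie at chr4:115647722-115647971 on the minus strand of GRCm38.p6 and hold 0 matches, on either strand, to the 5 patterns named here.
Cyp4b1: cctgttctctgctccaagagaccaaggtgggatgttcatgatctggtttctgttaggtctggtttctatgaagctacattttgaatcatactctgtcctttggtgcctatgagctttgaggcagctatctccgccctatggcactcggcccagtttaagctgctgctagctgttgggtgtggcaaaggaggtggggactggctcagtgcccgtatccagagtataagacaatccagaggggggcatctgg
An absent match says only that these letters are not in this window.

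In subfamily Cyp4f, whose members inactivate leukotrienes, 2 of 5 were called lower after SP30 at 10 mg/kg, where 31.3% of all genes were. Cyp4f15 had 4608, 4637, 5782, 5378 and 5150.4 after SP30 at 10 mg/kg and 6388, 4727, 4861, 5395 and 4587 after SP300 at 200 mg/kg, against 10483, 9629, 9606, 9871 and 8422 in control mice. Neither treated group overlapped with control, with differences of -0.91 ± 0.12 (adjusted p = 5.85e-08) and -0.89 ± 0.12 (adjusted p = 2.86e-07). Cyp4f14 had 7037, 7918, 9188, 8116 and 8616 after SP30, against 12798, 13876, 13781, 13163 and 12595 in control mice, with no overlap and a difference of -0.70 ± 0.10 (adjusted p = 2.60e-07). Cyp4f13, Cyp4f16 and Cyp4f39, the last known as a fatty acid hydroxylase of skin, were not called in any comparison with control.

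Cyp4v3, the mouse counterpart of the fatty acid hydroxylase lost in Bietti crystalline dystrophy, had 22768, 22857, 20453, 24451 and 20718 after SP70 at 40 mg/kg, against 24940.0, 29706, 33411, 36938 and 35923 in control mice. The groups did not overlap, and the difference was -0.52 ± 0.09 (adjusted p = 7.12e-06). Cyp4a14, a PPARA target that hydroxylates fatty acids, had 631, 298, 819, 499.9 and 1369 after SP30 at 10 mg/kg and 3139.6, 9462, 6661, 7789 and 6278 after SP300 at 10 mg/kg, against 15336, 4041, 1033, 598 and 1165 in control mice. Control mice spanned the whole range of both treated groups but for the lowest SP30 mice, and neither difference was called (-1.73 ± 0.80 and 1.54 ± 0.80). Without control mouse 4 the SP30 difference was -2.18 and was called (adjusted p = 0.0291). Cyp4a31 and a probe set that names both Cyp4a31 and Cyp4a10 were not called in any comparison with control.

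The question of the dose experiment was how the response depends on the amount of SP70. Between SP70 at 20 and 10 mg/kg, 10 members were lower at 20 mg/kg (12% of all genes were) and 0 were higher (4.99%, either way 17%). At an unadjusted p under 0.05 the higher ones numbered 1. Between 40 and 10 mg/kg, 21 were lower at 40 mg/kg (25.3%) and 0 were higher (5.22%, either way 30.6%, and 1 member at an unadjusted p under 0.05). The median log2 difference of the members was -0.18 and -0.30 in these comparisons, against -0.05 and -0.13 over all genes.

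Cyp4f15 had 10483, 9629, 9606, 9871 and 8422 in control mice, and 7321, 7381, 8317, 6475 and 6539, then 4698, 4207, 5519, 3567 and 3497, then 4477, 4196, 4134, 4479 and 3406 after SP70 at 10, 20 and 40 mg/kg. The 10 mg/kg mice lay between the control mice and the 20 mg/kg mice without overlap, and those at 20 and 40 mg/kg overlapped. The differences from control were -0.42 ± 0.12 (adjusted p = 0.0101), -1.18 ± 0.12 (adjusted p = 5.70e-10) and -1.22 ± 0.12 (adjusted p = 2.01e-10). Between 40 and 10 mg/kg the difference was -0.80 ± 0.12 (adjusted p = 3.31e-06).

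Cyp4b1 had 683, 759.9, 1127, 987 and 1104 and then 1062, 974, 1358, 917 and 1079 after SP70 at 10 and 20 mg/kg, and its signals at 40 mg/kg, given above, lay below both. The difference from control was -0.89 ± 0.28 at 10 mg/kg (adjusted p = 0.025), -0.67 ± 0.28 at 20 mg/kg, not called, and -2.14 ± 0.28 at 40 mg/kg. The call at 10 mg/kg was lost without control mouse 4 or 5 or SP70 mouse 1 or 2 (-0.81, -0.74, -0.79 and -0.82). At 20 mg/kg the difference was called with a pseudocount of 50, with quantile normalization, with centred arrays, in a fit of only the groups compared and with the replicate number as a block (adjusted p = 0.042, 0.0438, 0.0338, 0.0087 and 0.0485), and without control mouse 3 or SP70 mouse 3 (0.0442 and 0.048). Between 40 and 10 mg/kg it was -1.25 ± 0.28 (adjusted p = 0.000884).

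Cyp2u1 had 224, 536, 647, 309 and 266, then 281, 237, 222, 89.3 and 329, then 122, 197, 112, 227 and 25.5 after SP70 at 10, 20 and 40 mg/kg. Its difference from control was -0.73 ± 0.40, not called, then -1.47 ± 0.40 and -2.31 ± 0.40, both called. Neighbouring doses overlapped, and the difference between 40 and 10 mg/kg was -1.58 ± 0.40 (adjusted p = 0.00231). The dimmer probe set of Cyp2u1 was not called against control at any of these doses, with -0.76 (adjusted p = 0.155), -0.38 (adjusted p = 0.442) and -0.74 (adjusted p = 0.1), so the size of the difference depended on the probe set. With the mean of both probe sets the difference at 10 mg/kg was called (-0.75, adjusted p = 0.0178). Cyp2g1 had 96.7, 126, 179, 109 and 107 at 20 mg/kg, 54.4, 128, 258, 19 and 137 at 40 mg/kg, and differences from control of -1.62 ± 0.46 and -1.99 ± 0.46, both called. At each of these doses the highest mice overlapped with the lowest control mouse. At each of them 4 of 5 Cyp2g1 signals lay below the filter value, so the size of its differences is uncertain.

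**Figure D3:**
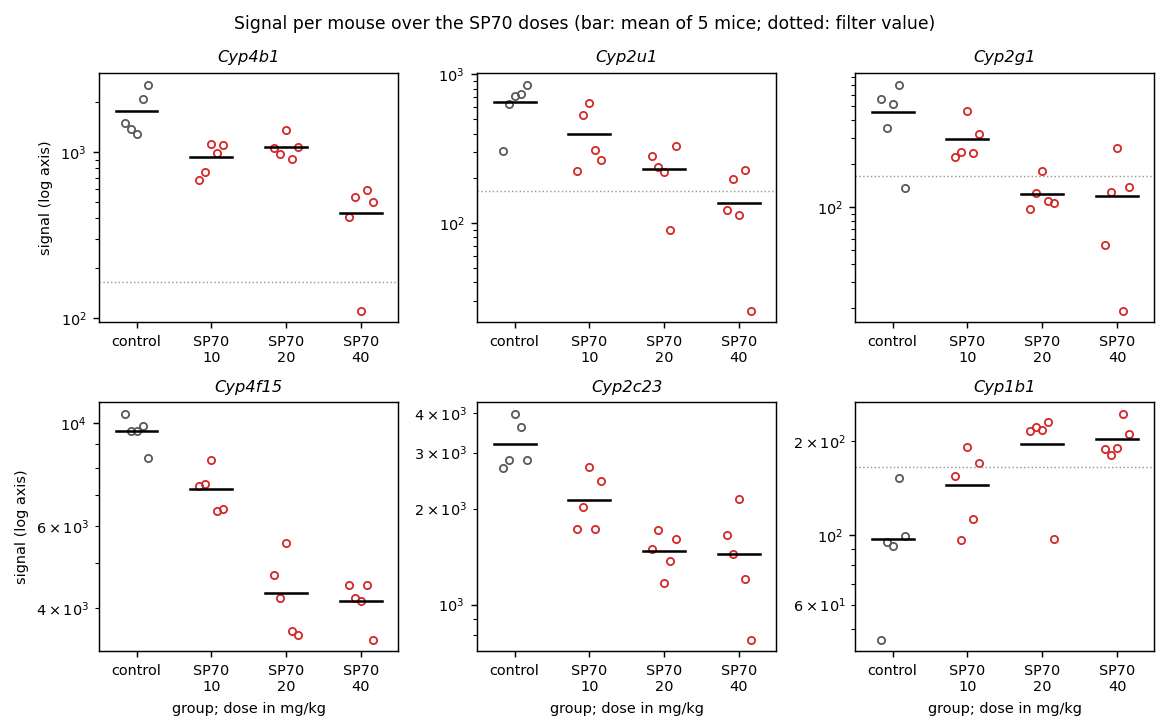
Signal per mouse (log axis) of 6 members in control mice and after SP70 at 10, 20 and 40 mg/kg. Circles are mice, bars are means of 5 mice and the dotted line is the filter value of 165 where it falls in range. Mean Cyp4f15 signal was 9602 ± 749 in control mice and 7207 ± 751, 4298 ± 842 and 4138 ± 439 over the doses (SD, n = 5 each), while Cyp1b1 lies higher at 20 and 40 mg/kg than in control mice.

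At the equal dose of 10 mg/kg more members were called between SP30 and each other particle than between SP70 and SP300. The same held over all genes. Between SP30 and SP300, 25 members were lower after SP30 (35.6% of all genes were) and 0 were higher (16.3%, either way 51.8%, and 0 members at an unadjusted p under 0.05). Between SP30 and SP70, 16 were lower after SP30 (23.6%) and 1, Cyp4f39 (0.59), was higher (5.41%, either way 29%). The Cyp4f39 call was lost without SP30 mouse 1, 4 or 5 or SP70 mouse 1, 2 or 3 (0.45 to 0.62). Between SP70 and SP300, 4 were lower after SP70, 8.7% of members against 10.2% of all genes. This share did not stand above that of all genes. Of the members 0 were higher (10.5%, either way 20.6%, and 1 member at an unadjusted p under 0.05). The 4 lower members were Cyp4b1 (-1.28), Cyp4f15 (-0.51), Cyp2d13 (-0.42) and Cyp2d22 (-0.27), the last lost without SP70 mouse 1 or 5 or SP300 mouse 1 or 3 (-0.22 to -0.24). Median differences of the members were -0.41, -0.26 and -0.12 in these 3 comparisons, against -0.18, -0.13 and -0.05 over all genes.

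The lowest difference between SP30 and SP300 at 10 mg/kg was that of Cyp4a14, which the comparisons with control had not called. All SP30 mice lay below all SP300 mice in the values given above, and the difference was -3.27 ± 0.80 (adjusted p = 0.000795). Cyp4b1 had 179, 288, 255, 267 and 467 after SP30, 683, 759.9, 1127, 987 and 1104 after SP70 and 2375, 2111, 2530.3, 1848 and 2402 after SP300. The 3 groups did not overlap, and SP30 against SP300 gave -2.96 ± 0.28 (adjusted p = 1.21e-10) and SP30 against SP70 gave -1.67 ± 0.28 (adjusted p = 3.17e-05). Cyp2r1 had 264, 365, 401, 333 and 428 after SP30, 799.6, 659, 1197, 569 and 1049 after SP70 and 742, 1803, 1180.1, 1005 and 1276 after SP300. SP30 lay below both others without overlap (-1.19 ± 0.22 against SP70 and -1.67 ± 0.22 against SP300). Cyp2c38 and Cyp2c39, not called against control, were lower after SP30 than after SP300 (-1.10 ± 0.28 and -0.91 ± 0.27) and than after SP70 (-0.85 ± 0.28 and -0.89 ± 0.27). The Cyp2c38 call against SP70 was lost without SP30 mouse 2 or SP70 mouse 1, 4 or 5 (-0.73 to -0.76). Against control both were called after SP30 without control mouse 5 (-0.83 and -0.82).

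**Figure D4:**
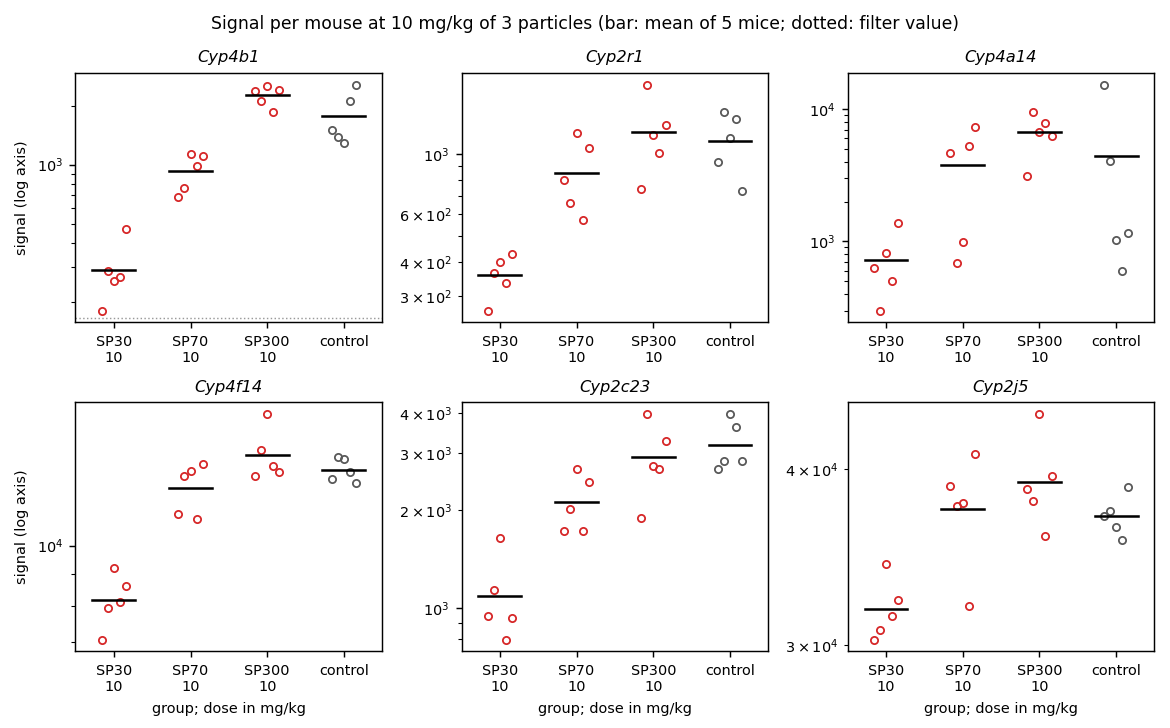
Signal per mouse (log axis) of 6 members after SP30, SP70 and SP300 at 10 mg/kg and in control mice. Circles are mice, bars are means of 5 mice and the dotted line is the filter value of 165 where it falls in range. Mean Cyp4b1 signal was 291 ± 107 after SP30, 932 ± 201 after SP70, 2254 ± 273 after SP300 and 1766 ± 549 in control mice (SD, n = 5 each), and the control values of Cyp4a14 span more than a factor of 10.

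The last question was whether size matters at doses chosen as toxic, where the dose differs with the particle. Between SP30 at 10 mg/kg and SP70 at 40 mg/kg, limma called 0 members higher (3.68% of all genes) and 0 lower (2.03%, either way 5.71%), and 3 and 2 at an unadjusted p under 0.05. The differences ran from -1.59 ± 0.80 for Cyp4a14 to 0.67 ± 0.41 for Cyp2b10. The standard errors were wide for such genes, so a missing call does not show equal levels. The 5 with an unadjusted p under 0.05 were Cyp2d22 (0.23), Cyp2f2 (0.19) and Cyp4f15 (0.31), higher after SP30, and Cyp2r1 (-0.57) and Cyp2s1 (-1.15), lower after SP30.

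Between SP30 at 10 mg/kg and the 200 mg/kg dose of SP300, 8 members were lower after SP30, 17.4% of members against 17.5% of all genes. The 4 that were higher made 8.7% of members, against 11.7% of all genes (either way 29.2%). Neither share stood above that of all genes. The lower ones included Cyp4b1 (-1.85 ± 0.28), Cyp2u1 (-1.43 ± 0.40), Cyp2c39 (-0.97 ± 0.27) and Cyp2c38 (-0.93 ± 0.28). The higher ones were Cyp2c70 (0.23), Cyp2f2 (0.23), Cyp2d9 (0.21) and Cyp3a11 (0.18). Each of these 4 higher calls but that of Cyp2f2 was lost without some single mice (0.16 to 0.22). The number of higher calls depended on the scaling, and was 1 with quantile normalization and 0 with arrays centred on their medians, with 8 lower under both. Between SP70 at 40 mg/kg and the 200 mg/kg dose of SP300, 3 were lower after SP70, 6.52% of members against 10.4% of all genes. They were Cyp2u1 (-1.44 ± 0.40), Cyp4b1 (-1.43 ± 0.28) and Cyp3a25 (-0.21 ± 0.06). Of the members 0 were higher (5.04%, either way 15.5%, and 0 members at an unadjusted p under 0.05). Without SP70 mouse 5 neither Cyp2u1 (-1.01) nor Cyp3a25 (-0.16) was called. The Cyp3a25 call was also lost without SP300 mouse 1 (-0.18).

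Members with the brightest probe sets had small differences from control. The control mean of 11 members exceeded 48037, a level above nearly all values on the arrays: Cyp1a2, Cyp2a12, Cyp2c29, Cyp2c70, Cyp2d9, Cyp2d10, Cyp2d26, Cyp2e1, Cyp2f2, Cyp3a11 and Cyp3a25. After SP30 at 10 mg/kg their log2 differences ran from -0.30 to 0.20, with 4 called lower and 1 higher. The other 35 members ran from -2.56 to 0.91, with 17 called lower and 1 higher. Over all genes 31.3% were called lower and 18.1% higher in this comparison. After SP70 at 40 mg/kg the ranges were -0.37 to 0.12 with 7 of 11 called lower, and -2.31 to 1.04 with 16 of 35 called lower. Over all genes 28.8% were called lower there. Whether signals this bright still follow the amount of RNA in proportion was not tested.

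**Figure D5:**
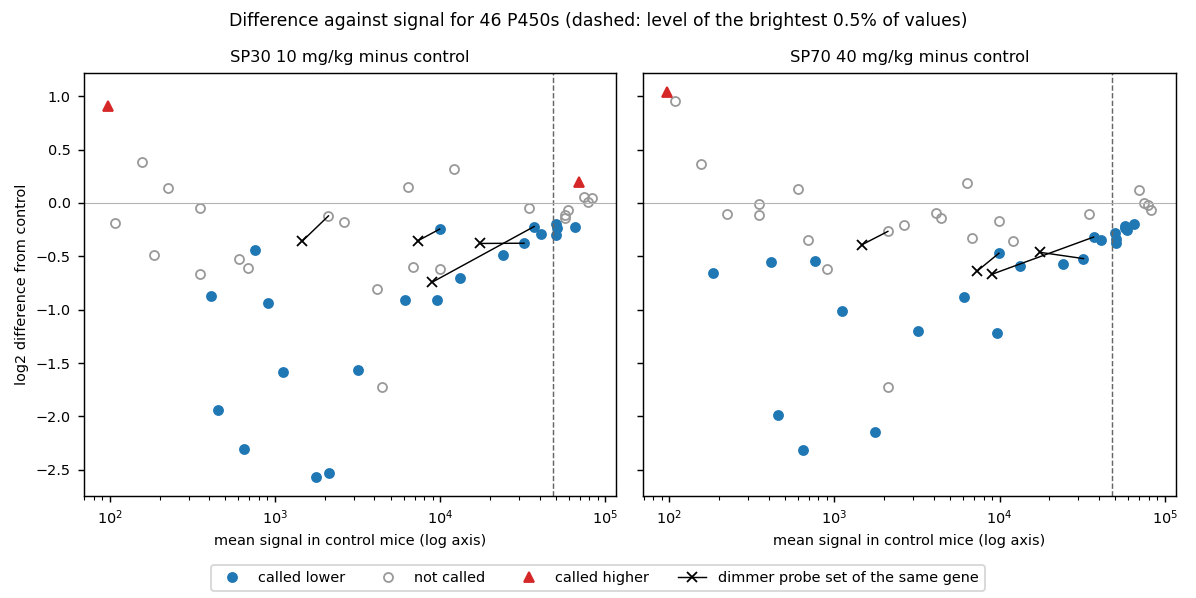
Log2 difference from control against the mean control signal (log axis) of the 46 members, after SP30 at 10 mg/kg and after SP70 at 40 mg/kg. Filled blue circles were called lower, red triangles higher and open circles not called. Crosses joined by a line are the dimmer probe sets of Cyp2d22, Cyp2j5, Cyp2j6 and Cyp4v3, all left of the dashed line. Those of other members, such as Cyp2u1, Cyp2d13, Cyp2b10 and Cyp4a31, are not drawn. After SP30 the dimmer probe set of Cyp2u1 fell less than the one used (-1.23 against -2.30), and that of Cyp2d13 fell more (-1.12 against -0.91). The dashed line marks 48037, right of which the differences stay between -0.37 and 0.20.

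Of 25 regulators of P450 genes tested, 16 were called lower and 4 higher after SP30 at 10 mg/kg (31.3% and 18.1% of all genes), 12 and 4 after SP70 at 20 mg/kg (20.9% and 18.8%), 10 and 3 at 40 mg/kg (28.8% and 15.6%), and 11 and 3 after SP300 at 200 mg/kg (18% and 12.6%). More lower than higher calls were also made over all genes in each of these comparisons. At 10 mg/kg of SP70, where few P450s were called, 6 regulators were called lower and 5 higher (5.7% and 12.5% of all genes). At 10 mg/kg of SP300 the counts were 2 lower and 1 higher (0.245% and 0.924%). Nr1i3, which encodes CAR, averaged 1775 ± 363 after SP30 at 10 mg/kg and 2817 ± 511 after SP70 at 40 mg/kg, against 7744 ± 1380.5 in control mice (SD, n = 5 each). Its differences were -2.12 ± 0.17 (adjusted p = 2.74e-12) and -1.45 ± 0.17 (adjusted p = 1.68e-08). Ahr, the aryl hydrocarbon receptor, had log2 differences of -1.33 and -1.11 in these groups. Nr1i2, which encodes PXR, and Ppara were called lower after SP30 (-0.38 ± 0.15 and -0.68 ± 0.15) and not after SP70 at 40 mg/kg (0.01 ± 0.15 and -0.15 ± 0.15). Between SP30 and SP70 at 40 mg/kg the difference of Ppara was -0.53 ± 0.15 (adjusted p = 0.0291) and that of Nr1i2 was -0.39 ± 0.15 (adjusted p = 0.125). The call of Nr1i2 after SP30 was lost without control mouse 1 or 3 or SP30 mouse 1, 2 or 4 (-0.30 to -0.38), and that of Ppara against SP70 without 6 of the 10 single mice (-0.45 to -0.52).

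The pioneer factors Foxa1 and Foxa2 were called lower after SP30 (-1.75 ± 0.20 and -1.63 ± 0.20), as was the coactivator Ppargc1a (-2.13 ± 0.26). Foxa1 was also called lower after SP300 at 10 mg/kg (-1.08 ± 0.20, adjusted p = 0.00296). Hnf4a, a hepatocyte factor, was called higher after SP30 (0.48 ± 0.10), and Nr1h4, the bile acid receptor, was not called (-0.06 ± 0.18).

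Among redox partners and haem genes, 13 of 18 were called lower and 2 higher after SP30 at 10 mg/kg, and 13 lower and 1 higher after SP70 at 40 mg/kg, where 31.3% and 18.1%, then 28.8% and 15.6% of all genes were. P450 reductase itself was not analysed here. Hmox1, the haem-degrading oxygenase, averaged 6346 ± 2812 after SP30 at 10 mg/kg and 5098 ± 1706 after SP70 at 40 mg/kg, against 465 ± 213 in control mice (SD, n = 5 each), with differences of 3.74 ± 0.32 and 3.49 ± 0.32. Alas1, the first enzyme of haem synthesis, was called lower in both (-0.60 ± 0.25 and -0.69 ± 0.25). Single mice decided both calls: after SP30 the call was lost without 7 of the 10 mice (-0.44 to -0.62), and after SP70 without control mouse 1 (-0.60) or SP70 mouse 5 (-0.59). Cyb5b, an outer mitochondrial cytochrome b5, and the haem synthesis enzymes Cpox and Alad were lower after SP30 (-1.09, -0.88 and -0.79).

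Of 14 P450s of other families tested, 4 were called lower and 1 higher after SP30 at 10 mg/kg, a lower share close to the 31.3% of all genes and a higher one below their 18.1%. Cyp7a1, the rate-limiting enzyme of bile acid synthesis, was lower (-2.00 ± 0.61, adjusted p = 0.00645), as was Cyp8b1, the sterol hydroxylase that yields cholic acid (-0.94 ± 0.22). Cyp7b1, an oxysterol hydroxylase, was higher (1.24 ± 0.37, adjusted p = 0.00545). Neither Cyp7a1 (-0.92 ± 0.61) nor Cyp7b1 (0.48 ± 0.37) was called after SP70 at 40 mg/kg. Of the PPARA targets that are no P450, 7 of 14 were called lower and 1 higher after SP30 (31.3% and 18.1% of all genes), among the lower ones Slc25a20 (-0.77), the carnitine carrier of mitochondria. Of 4 AHR targets that are no P450, Tiparp was called higher (1.28) and Gstm3 lower (-1.21), and the call of Gstm3 was lost without control mouse 2 or 4 or SP30 mouse 4 or 5 (-0.97 to -1.09).

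Many P450s are made around the central vein of the liver lobule, and genes of that zone and of the portal zone that are no P450 were also counted. After SP30 at 10 mg/kg, 6 of 13 pericentral genes were called lower and 1 higher, and 3 of 11 periportal genes were called lower and 1 higher, where 31.3% and 18.1% of all genes were. The periportal count was no higher than that share. After SP70 at 40 mg/kg the counts were 5 lower and 1 higher of the pericentral genes and 6 lower and 1 higher of the periportal genes (28.8% and 15.6% of all genes). The pericentral aldehyde dehydrogenase Aldh3a2 was lower after SP30 (-1.25 ± 0.15), as was Lgr5, a Wnt pathway receptor (-1.28 ± 0.21). The periportal Hal, which degrades histidine, was lower (-1.94 ± 0.17), and Sox9 was higher (2.49 ± 0.35).

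Of 11 cytokines and mediators known to lower liver P450s, 6 were tested. After SP30 at 10 mg/kg, 4 were called higher and 0 lower (18.1% and 31.3% of all genes). Over the SP70 doses of 10, 20 and 40 mg/kg, 2, 3 and 5 were called higher (12.5%, 18.8% and 15.6%). Called lower there were 0, 0 and 1 (5.7%, 20.9% and 28.8%). SP300 gave 0 either way at 10 mg/kg (0.924% higher and 0.245% lower), and 2 higher and 1 lower at 200 mg/kg (12.6% and 18%). Il1b and Tnf, which encode interleukin 1 beta and tumour necrosis factor, had differences of 3.41 ± 0.18 and 3.06 ± 0.35 after SP30 and 2.23 ± 0.18 and 2.24 ± 0.35 after SP70 at 40 mg/kg. Of 8 cholangiocyte and stellate cell markers, 3 were called lower and 1 higher after SP30 and likewise after SP70 at 40 mg/kg (28.8% to 31.3% of all genes were lower). The 1 higher marker was Sox9, which was also the 1 higher gene of the periportal list. The part of cytokines and zones in the P450 differences was not tested.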

How the data were processed

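RNA of the left lateral liver of 35 mice was labelled with the Affymetrix 3' IVT Express kit and hybridised to 1 array per mouse, per the labels' protocols. The values used are the intensities that the authors deposited for 45101 probe sets, on a linear scale, and the submitters' processing notes name MAS5 for them. Its version and the scaling are not given in the sources used here, and no scaling was added. The labels call the mice biological replicates.

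Genes came from GEO's platform annotation, with 34945 probe sets naming 1 gene, and 34741 of these symbols matched to RefSeq. Per gene the probe set with the highest mean was kept, when above 165 on 5 or more arrays, which left 12669 of 18193 genes. Groups were compared with limma 3.58.1 (R 4.3.3) on log2(intensity + 12.49), with 1 mean per group, all 35 arrays and a variance trend, in 14 comparisons. Adjusted p-values are Benjamini-Hochberg over all genes tested, with a threshold of 0.05. The method was tested on simulated data. The number of arrays limits the precision.

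Every mouse's value was to be given for the 3 highest and 3 lowest called members of each comparison with control and the brightest member of each subfamily. Up to 4 genes per other list were to be named by smallest adjusted p, together with fixed receptors and haem genes. The members and lists were chosen with earlier results of these data known. Same-numbered mice of different groups did not deviate together (mean r = -0.000553 over 105 pairs of arrays, -0.103 to 0.112), so the numbers do not pair the mice. Promoter windows are RefSeq's on GRCm38.p6, and 9 members had none in the table used. Alternatives changed the pseudocount, filter, scaling, probe set rule, arrays fitted, variance trend and block, and left out each mouse in turn.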

Additional observations from a re-analysis of the deposited data

Results flagged for a closer look

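In 7 of 161 groups of 5 mice examined (23 members in 7 groups), the highest or lowest mouse stood apart from the other 4 by more than 0.71 of the group's range, and chance alone does this in about 1 in 20 groups. Among control mice, 1 mouse had a Cyp2b13 signal of 9786.4, with the next at 289.92, and the same mouse had a Cyp4a14 signal of 15336, with the next at 4041. For Cyp2b13 after SP300 at 10 mg/kg the highest mouse had 511.34 and the next 207.54. For Cyp2s1 after SP70 at 20 mg/kg the highest mouse had 228.63 and the next 139.88.

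The other 3 stood apart at the low end. Cyp1b1 had a lowest signal of 97.103 after SP70 at 20 mg/kg, with the nearest mouse at 215.43. Cyp2c70 had a lowest signal of 65060.0 after SP70 at 40 mg/kg, with the nearest at 76998. Cyp4b1 had a lowest signal of 599.41 after SP300 at 200 mg/kg, with the nearest at 1146.9.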

How the results depend on the processing

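Of the 14 counts of called members, most stayed within 1.5 times their value under each alternative. The exceptions are as follows. The 10 members between SP70 at 20 and 10 mg/kg became 6 with no filter, 4 with quantile normalization and 6 with no variance trend. With quantile normalization the count was 6 in place of 3 for SP70 at 10 mg/kg against control (1 higher and 5 lower, where the fit without it gave 1 and 2), 10 in place of 21 between SP70 at 40 and 10 mg/kg, and 7 in place of 4 between SP70 and SP300 at 10 mg/kg. Between SP70 at 40 mg/kg and the 200 mg/kg dose of SP300 it was 5 in place of 3 with centred arrays and 5 in a fit of only the groups compared. Between SP30 at 10 mg/kg and SP70 at 40 mg/kg it was 1 in place of 0 with the mean of a gene's probe sets. The split of 4 higher and 8 lower between SP30 at 10 mg/kg and the 200 mg/kg dose of SP300 became 1 and 8 with quantile normalization and 0 and 8 with centred arrays. The cause was not tested.

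Leaving out each mouse in turn gave 1 to 4 called members for SP70 at 10 mg/kg against control, 15 to 19 at 20 mg/kg and 22 to 25 at 40 mg/kg. The range was 17 to 25 for SP30 at 10 mg/kg, 0 to 0 for SP300 at 10 mg/kg and 16 to 20 at 200 mg/kg. Between SP70 doses it was 4 to 10 (20 and 10 mg/kg) and 17 to 22 (40 and 10 mg/kg). At 10 mg/kg it was 13 to 19 for SP30 against SP70, 25 to 26 for SP30 against SP300 and 3 to 5 for SP70 against SP300. At the toxic doses it was 0 to 1 for SP30 against SP70, 9 to 11 for SP30 against SP300 and 1 to 4 for SP70 against SP300. The count moved by over 1.5 times without control mouse 4 or SP70 mouse 1 (to 1, SP70 at 10 mg/kg against control), and without 10 mg/kg mouse 3 or 5 or 20 mg/kg mouse 2 or 4 (to 5, 6, 5 and 4, between those doses). It did so too without SP70 mouse 3 (to 1, SP30 against SP70 at toxic doses) and without SP70 mouse 5 (to 1, SP70 against SP300 at toxic doses).

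With the replicate number as a block, although the numbers do not pair the mice, the counts against control were 3, 20 and 24 for SP70 at 10, 20 and 40 mg/kg, 23 for SP30, and 0 and 19 for SP300 at 10 and 200 mg/kg. The 8 direct comparisons gave 9, 21, 16, 25, 4, 0, 11 and 4.

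Among the 23 members chosen for values of every mouse, no called difference from control changed sign under any alternative run. The differences of other members named here were not followed through all alternatives. Centring moved the median of all genes, for SP70 at 20 mg/kg against control to -0.118 from -0.03. Signals below the filter value, as for Cyp1b1, Cyp2g1 and Cyp2u1, limit how well a difference is measured, and bright probe sets may limit it at the other end.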
